A study of Mus musculus with 4 samples.

Results

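The genes described here are those of the cytosolic ribosomal proteins, the proteins that together with ribosomal RNA build the ribosome outside mitochondria. A gene was taken where its platform symbol began with Rpl or Rps and a digit, or with Rplp, was not one of the Rps6k kinases and carried no "ps" (the mark of a pseudogene) in its suffix. This rule gave 62 of the 19938 genes that had a probe set assigned to 1 symbol, measured by 214 probe sets. Of the 62, 53 are subunits of the usual ribosome, 33 of the large and 20 of the small subunit. The other 9 are paralogs, retrogenes or binding proteins that share the naming: Rpl3l, Rpl7l1, Rpl10l, Rpl32l, Rpl39l, Rps4l, Rps19bp1, Rps23rg1 and Rps27l.

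The arrays measured RNA from sorted cells from small intestinal crypts of adult mice, with 1 array in each of 4 groups. Zip7 KO mice were Zip7flox/flox and carried villin-CreERT2 and Lgr5-EGFP-ires-CreERT2, and control mice were Zip7flox/+ with the same 2 drivers, so that the control also carried 1 floxed copy. Zip7 is the gene Slc39a7, whose protein moves zinc out of the endoplasmic reticulum and Golgi into the cytosol. All mice had received tamoxifen, which activates CreERT2, for 2 days, and villin-CreERT2 acts throughout the intestinal epithelium. From each genotype a fraction labelled Lgr5-Hi and a fraction labelled Lgr5-Med (Lgr5-Mid in the titles) were sorted, Lgr5 being the marker of crypt stem cells. The labels do not give the number of animals behind an array, nor whether both fractions of a genotype came from the same mice. Since each group is a lone array, replicate spread is unknown, no difference below was tested, and each is a difference between 2 arrays.

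A ribosome joins messenger RNA to a small subunit, which reads the codons, and a large subunit, which forms the peptide bonds. Cells make most of its proteins in near equal numbers, and mammalian cells control many of these messages together through a run of pyrimidines at the very start of the RNA (the 5' terminal oligopyrimidine, or TOP, tract), which lets mTORC1 and LARP1 set their translation. An array measures the amount of RNA and does not read translation. In the intestine, Myc, a target of Wnt signalling in crypts, drives transcription of ribosome genes in dividing cells. Most ribosomal protein genes have 1 transcribed copy with introns and many processed pseudogenes, whose sequence can resemble the probes.

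The start sites of the 10 members with a pyrimidine run at the annotated start are shown, because this run is the feature for which the family's messages are known. RefSeq sequences of the mouse assembly GRCm38.p6 were held for 50 of the 62 members, with 59 promoters between them. Each line gives 10 bases before and 20 bases from the annotated start, 5' to 3' on the gene's strand, and the capitals mark the run of C and T that begins with a C at the annotated start.
Rps6: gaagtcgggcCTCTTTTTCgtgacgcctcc
Rpl28: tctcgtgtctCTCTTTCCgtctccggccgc
Rps15a: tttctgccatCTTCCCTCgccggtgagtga
Rplp2: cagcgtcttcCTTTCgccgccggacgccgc
Rpl14: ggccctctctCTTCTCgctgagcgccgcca
Rpl38: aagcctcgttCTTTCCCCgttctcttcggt
Rps10: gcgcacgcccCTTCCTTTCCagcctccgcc
Rps18: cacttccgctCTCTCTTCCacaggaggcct
Rps21: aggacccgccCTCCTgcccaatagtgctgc
Rpl32l: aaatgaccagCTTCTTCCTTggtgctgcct

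These windows lie at chr4:86857348-86857377 on the minus strand for Rps6, chr7:4792955-4792984 on the plus strand for Rpl28, and chr7:118116128-118116157 on the minus strand for Rps15a. The window of Rplp2 is chr7:141447641-141447670 on the plus strand, that of Rpl14 is chr9:120571507-120571536 on the plus strand, and that of Rpl38 is chr11:114668570-114668599 on the plus strand. Those of Rps10 and Rps18 are chr17:27635225-27635254 and chr17:33955646-33955675, both on the minus strand, and those of Rps21 and Rpl32l are chr2:180257369-180257398 and chr10:20208429-20208458, both on the plus strand. A C at the annotated start followed by at least 4 bases that were each C or T, read on the gene's strand, was found in 10 of the 59 promoters (16.9%), and in 823 of all 32851 promoters of the table (2.51%). The same run placed anywhere from 10 bases before to 15 bases from the annotated start was found in 52.5% of the members' promoters and in 30.7% of all promoters. The 6-base motif CGGAAG, which ETS factors bind, was found on either strand of the 300-base window in 61% of the members' promoters and in 16.9% of all. A match describes these letters only, and an annotated start may lie some bases from the start that the tissue uses.

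The labels were checked against 4 genes. Lgr5 itself had RMA values (log2) of 7.93 in Zip7 KO and 7.79 in control cells labelled Lgr5-Hi, against 11.24 in Zip7 KO and 10.97 in control cells labelled Lgr5-Med. It was therefore lower in the fraction named for a high level, and the fractions are called by their labels throughout. Each difference given below as labelled Lgr5-Hi minus labelled Lgr5-Med therefore sets cells with less Lgr5 message against cells with more, and whether the labels were exchanged cannot be told from the files; if they were, every such difference would carry the opposite sign. Slc39a7 read 9.02 in Zip7 KO and 8.92 in control cells labelled Lgr5-Hi, and 8.22 in Zip7 KO and 8.61 in control cells labelled Lgr5-Med, so that it was lower in Zip7 KO cells in the second pair alone; whether its probes lie in the deleted part is unknown here. Xist, expressed from the inactive X chromosome of females, was 5.59 and 5.43 on the Zip7 KO arrays against 11.64 and 11.84 on the control arrays, and the Y-linked Eif2s3y was 8.12 and 8.11 against 4.10 and 4.24, so that sex and genotype cannot be told apart. The floor for expression, set at percentile 95 of 1203 genes for olfactory, vomeronasal and trace amine receptors, lay between 6.10 and 6.25 on the 4 arrays.

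The ribosomal protein genes were among the brightest on every array. All 4 arrays read 59 of the 62 members above the floor and the other 3 members below it. The mean level of the 53 subunit genes ran from 6.97 to 13.8, with a median of 11.9, against a median of 6.76 over all 19938 genes. Of these 53, 41 lay between 11 and 14, 6 between 9 and 11 and 6 below 9. The 200 brightest genes of the arrays held 30 members, 15% of that set. Brightness depends on how well each probe set hybridises as well as on the amount of RNA, and ribosomal proteins are needed in equal numbers, so the order of levels is given as a description of the probe sets.

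The brightest member was Rplp1, an acidic protein of the stalk with which the large subunit recruits elongation factors. It read 13.77 in Zip7 KO and 13.76 in control cells labelled Lgr5-Hi, and 13.67 in Zip7 KO and 13.89 in control cells labelled Lgr5-Med. Next came Rps6, the small-subunit protein phosphorylated by S6 kinases, with 13.61 in Zip7 KO and 13.58 in control cells labelled Lgr5-Hi, and 13.79 in Zip7 KO and 13.63 in control cells labelled Lgr5-Med. Rplp0, the protein that anchors the stalk, Rpl28 and Rpl21 completed the brightest 5, and the neighbours among these 5 lay closer to each other than 1 gene's values lay across the 4 arrays.

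At the dim end stood Rpl39l, Rpl10l and Rpl3l, paralogs that in mammals are known from testis (Rpl10l and Rpl39l) and striated muscle (Rpl3l). Rpl39l read 4.56 in Zip7 KO and 4.59 in control cells labelled Lgr5-Hi, and 4.63 in Zip7 KO and 4.61 in control cells labelled Lgr5-Med. Rpl10l lay between 5.37 and 5.58 and Rpl3l between 5.52 and 5.78, so that all 12 readings were under the floors and these paralogs were not detected in either genotype or fraction. Rps23rg1, a retrogene of Rps23, and Rplp2, the partner of Rplp1 in the stalk, were the dimmest of the detected members.

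**Figure D1:**
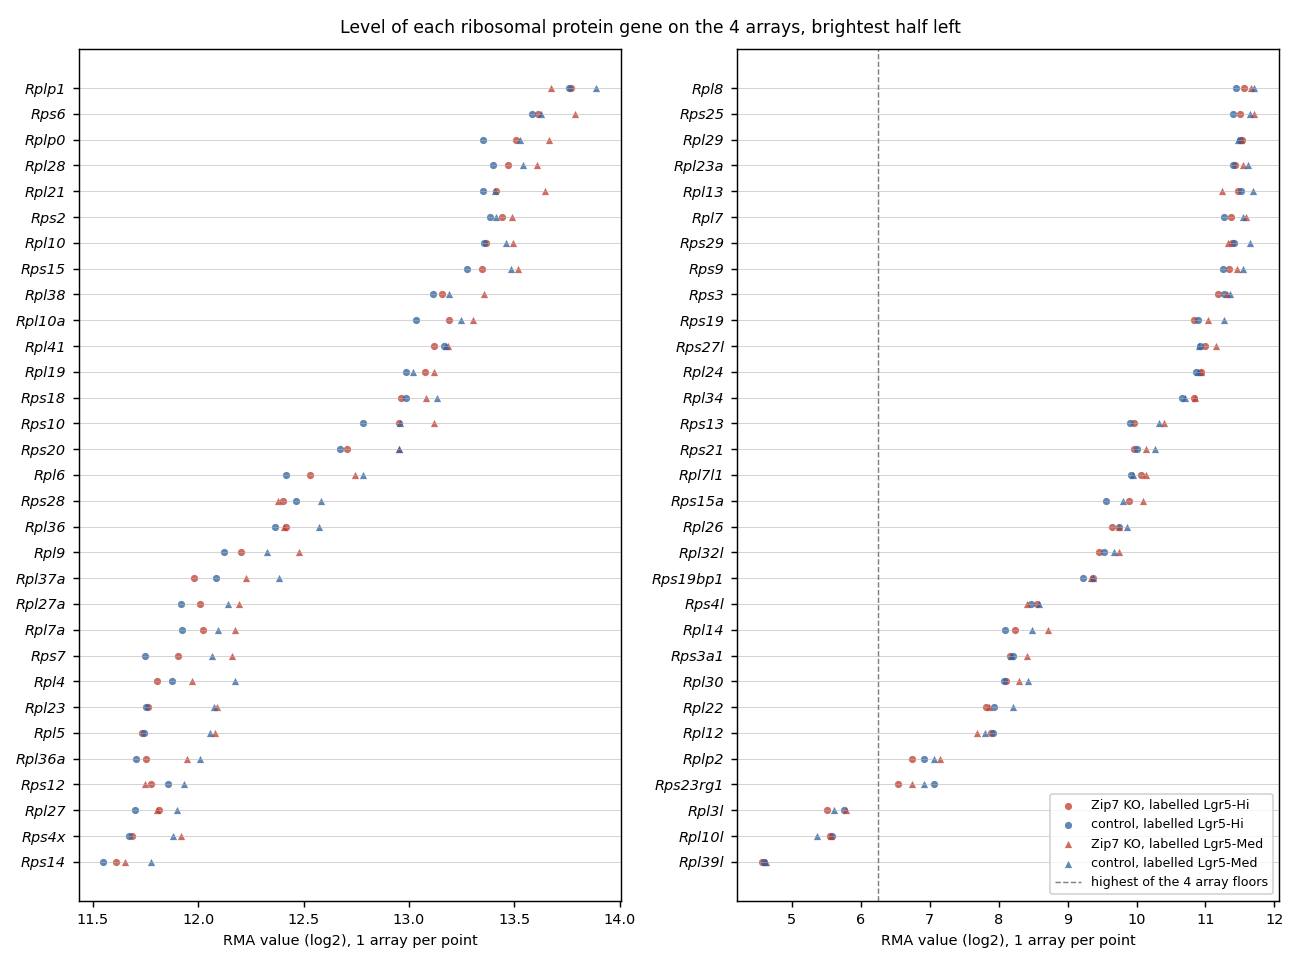
RMA value (log2) of each of the 62 ribosomal protein genes on the 4 arrays, ordered by mean level from top left to bottom right; colour gives the genotype, the shape of the point gives the fraction label, and the dashed line is the highest of the 4 floors. Triangles (labelled Lgr5-Med) lie right of the circles (labelled Lgr5-Hi) for most genes, and the points of Rpl3l, Rpl10l and Rpl39l lie left of the floor. The axes of the panels cover different ranges.

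The comparison of genotypes asked how these genes differed in Zip7 KO cells within 1 fraction label. In cells labelled Lgr5-Hi the ribosomal protein messages of the Zip7 KO array lay close to those of the control array. Over the 59 detected members the median difference, Zip7 KO minus control, was 0.05 on the log2 scale, with quartiles of -0.04 and 0.09, against a median of 0.02 over all 12017 genes above the floor. Of the 59, 40 were higher and 19 lower in Zip7 KO cells, where 55% of all genes were higher and 45% lower. The subunit genes gave the same median, 0.05, with 36 of 53 higher. The medians of the large and small subunit were 0.05 and 0.03. The sign of so small a shift depended on how the arrays were scaled: with the trend of the difference on level removed (loess), 23 members were higher and 36 lower, and with quantile normalization or with the arrays shifted to equal medians, 31 were higher and 28 lower. The median of all genes moved with the scaling too. After quantile normalization the members had a median of 0.0086, against -0.0225 over all genes. With equal medians these were 0.0135 and -0.0158, and with the loess trend removed -0.0194 and -0.0002. Among these scalings the members thus lay below all genes with the loess trend removed only. Of the members, 0 differed by 2-fold or more, where 0.483% of all genes did. A smaller size of 0.32 on the log2 scale, which is 25% higher or 20% lower, was reached by 2 members, against 12.5% of all genes. Of these, 1 was higher, against 6.93% of all genes, and 1 lower, against 5.55%.

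These 2 were Rps15a, a small-subunit protein, and Rps23rg1. Rps15a read 9.89 in Zip7 KO and 9.56 in control cells labelled Lgr5-Hi, a difference of 0.32, and 10.10 in Zip7 KO and 9.81 in control cells labelled Lgr5-Med, a difference of 0.29. It was the member with the largest higher value in Zip7 KO cells under both labels. Rps23rg1 read 6.53 in Zip7 KO and 7.06 in control cells labelled Lgr5-Hi, a difference of -0.52, and 6.75 in Zip7 KO and 6.92 in control cells labelled Lgr5-Med. Its readings were within 1 log2 unit of the floor. Rps15a and Rps23rg1 each have 1 probe set of 1 symbol. Rps15a, unlike Rps23rg1, is also named on at least 1 probe set of several symbols, which its level leaves out. Under the 3 other scalings the Rps15a difference in cells labelled Lgr5-Hi was between 0.24 and 0.29.

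The other members with the widest genotype differences in cells labelled Lgr5-Hi were smaller and mostly upward. Rps10, which sits at the beak of the small subunit, read 12.96 in Zip7 KO and 12.78 in control cells. Rpl10a, of the large subunit, read 13.19 against 13.03, and Rps7, of the small subunit, 11.91 against 11.75. Rpl34 read 10.83 in Zip7 KO and 10.66 in control cells. The stalk proteins did not share a direction: the difference was 0.15 for Rplp0, 0.01 for Rplp1 and -0.17 for Rplp2, the dimmest of them, at 6.74 in Zip7 KO and 6.91 in control cells.

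In cells labelled Lgr5-Med the members centred near 0 and spread further downward. The median difference was 0.02, with quartiles of -0.12 and 0.08, against -0.03 over 12257 genes. Of the 59 members, 32 were higher and 27 lower in Zip7 KO cells, against 44.2% and 55.8% of all genes. Here too the sign followed the scaling, with 24 higher and 35 lower after quantile normalization, 25 higher and 34 lower with the loess trend removed, and 39 higher and 20 lower when the arrays were shifted to equal medians. The members' median was -0.0144 after quantile normalization, against -0.0526 over all genes. With equal medians these were 0.0917 and 0.0411, and with the loess trend removed -0.0273 and -0.0014. Again the members lay below all genes with the loess trend removed only. A 2-fold difference was seen in 0 members and in 0.685% of all genes, and a difference of at least 0.32 in 3 members, against 11.9% of all genes. All 3 were lower in Zip7 KO cells, where 8.39% of all genes were lower by that size and 3.47% higher.

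The 3 were Rpl13, Rpl22 and Rps29. Rpl13, a large-subunit protein, read 11.24 in Zip7 KO and 11.69 in control cells labelled Lgr5-Med, a difference of -0.45. In cells labelled Lgr5-Hi it read 11.47 in Zip7 KO and 11.52 in control cells, so that the Zip7 KO reading labelled Lgr5-Med was the lowest of the 4. Rpl22, a large-subunit protein known in mice for its need in the development of alpha-beta T cells, read 7.86 against 8.21, a difference of -0.35. The zinc-binding small-subunit protein Rps29 read 11.33 against 11.65, a difference of -0.32, and 11.38 against 11.41 in cells labelled Lgr5-Hi.

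Other wide differences in cells labelled Lgr5-Med ran in both directions. Rps27l, a paralog of Rps27 that p53 induces, read 11.15 in Zip7 KO and 10.90 in control cells, with a smaller difference of the same sign, 0.08, in cells labelled Lgr5-Hi. Rpl14 and Rpl21, both of the large subunit, were higher by 0.24 each. Rps19, the gene most often mutated in Diamond-Blackfan anaemia in humans, read 11.03 in Zip7 KO and 11.27 in control cells. Rplp1 differed by -0.22 in these cells, while Rplp0 differed by 0.14.

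Over the 4 arrays, a member was called separate by genotype where both Zip7 KO readings lay on 1 side of both control readings. Both Zip7 KO readings were the higher in 9 of the 59 members, against 14.3% of all genes, and the lower in 6, against 15.9% of all genes. The 9 were Rpl7l1, Rpl19, Rpl21, Rpl24, Rpl29, Rpl34, Rps2, Rps15a and Rps27l, and the 6 were Rpl13, Rpl22, Rps12, Rps23rg1, Rps28 and Rps29. These calls rest on the brightest probe set of each gene, and other probe sets went against some of them. In cells labelled Lgr5-Hi, 11 of 14 probe sets of Rps12, 2 of 9 of Rpl13 and 1 of 7 of Rps28 were higher in Zip7 KO cells. Of the 3 of Rps2, 1 was lower. In cells labelled Lgr5-Med, 2 of 7 of Rps28 were higher. Lower there were 2 of 7 of Rpl19 and 1 of 3 each of Rps2 and Rpl24. Of the 53 subunit genes, 25 were higher in Zip7 KO cells under both labels, against 30.1% of all genes, 13 were lower under both, against 30.8%, and 15 had opposite signs, against 39.1%. Across these 53 genes the genotype differences under the 2 labels, which share no array, had a Pearson correlation of 0.58 and a Spearman correlation of 0.59, and the Pearson correlation over all genes was 0.53. The points of this correlation share the 4 arrays and the sex difference between the genotypes.

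Marker genes of other cell types differed between genotypes. All 7 Paneth cell markers were lower in Zip7 KO cells, with a median difference of -0.93 in cells labelled Lgr5-Hi and -1.54 in cells labelled Lgr5-Med, and their summed level (log2) was 14.66 in Zip7 KO against 15.20 in control and 13.49 in Zip7 KO against 14.61 in control under these labels. The 11 detected of 12 lymphocyte and myeloid markers were all lower in Zip7 KO cells, by medians of -0.94 and -0.96, with summed levels of 12.17 against 12.68 and 12.44 against 13.08. In cells labelled Lgr5-Med all 11 enterocyte markers were also lower in Zip7 KO cells (median -0.51, summed levels 14.67 against 15.05), as were 5 of 6 goblet cell markers (median -0.37, 13.90 against 14.35), while all 6 tuft cell markers were higher (median 0.33, 10.71 against 10.40). Of all genes, 45% were lower in Zip7 KO cells labelled Lgr5-Hi, and in cells labelled Lgr5-Med 55.8% were lower and 44.2% higher. The part of these markers in the genotype differences of the ribosomal protein genes was not tested. In bulk samples such as these, fewer cells of a type and less RNA per cell cannot be told apart.

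The comparison of fraction labels gave the widest shared shift of the family. Ribosomal protein messages were lower in cells labelled Lgr5-Hi than in cells labelled Lgr5-Med of the same genotype, and the shift was spread over nearly the whole family. In Zip7 KO mice the median difference, labelled Lgr5-Hi minus labelled Lgr5-Med, was -0.15 over the 59 members, with quartiles of -0.21 and -0.05, which is a difference of -10.1%. In control mice it was -0.18, with quartiles of -0.27 and -0.08, or -11.6%. The medians of all genes above the floor were -0.0045 in Zip7 KO and -0.04 in control mice. In Zip7 KO mice 47 of 59 members were lower in cells labelled Lgr5-Hi, against 50.7% of all 12158 genes, and 12 were higher, against 49.3%. In control mice 54 of 59 were lower, against 56.7% of all 12252 genes, and 5 were higher, against 43.3%. Both medians kept this sign under each of the 9 alternatives in processing. The alternative that required the floor on all 4 arrays could not change them, since all 59 members passed it. With the arrays shifted to equal medians, 54 members were lower in Zip7 KO and 46 in control mice.

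The shift was small for every gene. A 2-fold difference was seen in 0 members, where 2.62% of all genes reached it in Zip7 KO and 1.19% in control mice. The members lower by at least 0.32 in cells labelled Lgr5-Hi numbered 5 in Zip7 KO mice, against 12.4% of all genes, and 6 in control mice, against 13.2%. No member was higher by that size, against 15.1% of all genes in Zip7 KO and 7.7% in control mice, so that 27.5% and 20.9% of all genes reached it either way. The family thus held few wide differences and many small ones of 1 sign. Both subunits took part: the medians of the large subunit were -0.13 in Zip7 KO and -0.20 in control mice, with 26 and 31 of 33 lower, and those of the small subunit were -0.17 in Zip7 KO and -0.22 in control mice, with 17 and 19 of 20 lower.

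**Figure D2:**
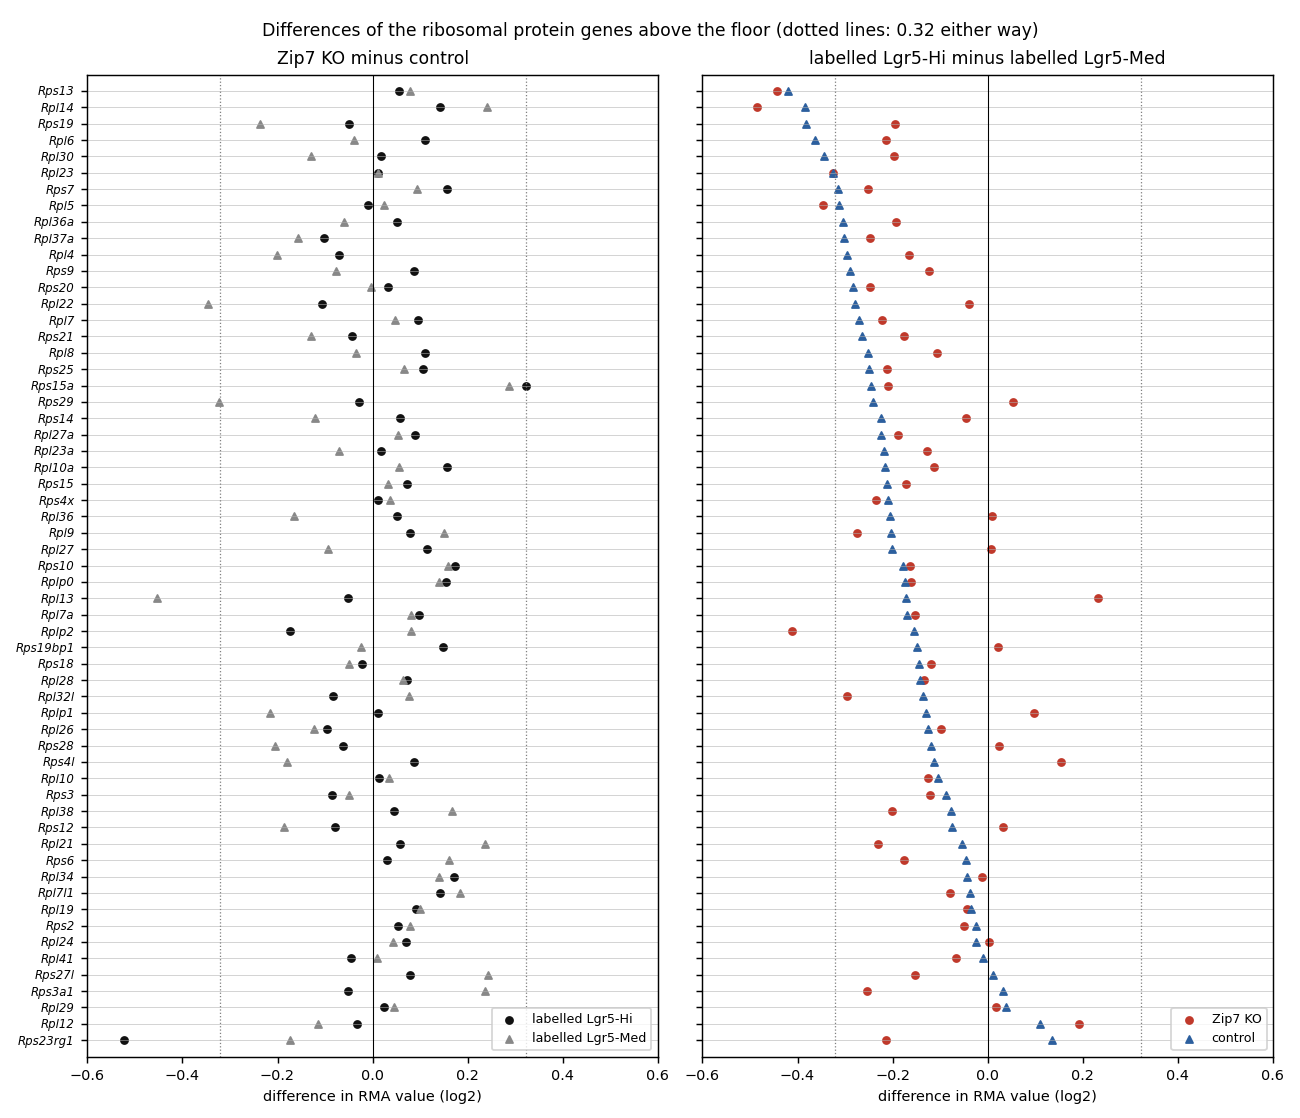
Difference in RMA value (log2) of the 59 detected ribosomal protein genes, between genotypes, Zip7 KO minus control (left), and between fraction labels, Lgr5-Hi minus Lgr5-Med (right), ordered by the fraction difference in control mice; dotted lines mark 0.32 in either direction. Genotype differences lie on both sides of 0, and fraction differences lie left of 0 for 47 of 59 genes in Zip7 KO and 54 of 59 in control mice.

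Of the 53 subunit genes, 42 (79.2%) were lower in cells labelled Lgr5-Hi in both genotypes, against 39.6% of all genes, 2 were higher in both, against 32.3%, and 9 had opposite signs, against 28%. In the 4 readings of 37 of the 59 members, both arrays labelled Lgr5-Hi lay below both arrays labelled Lgr5-Med, against 29.9% of all genes. The reverse order was seen in 1 member, Rpl12, against 24% of all genes. Rpl12, at the base of the stalk, read 7.88 in Zip7 KO and 7.91 in control cells labelled Lgr5-Hi, against 7.69 in Zip7 KO and 7.81 in control cells labelled Lgr5-Med.

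The widest fraction differences were those of Rpl14 and Rps13. Rpl14 read 8.24 labelled Lgr5-Hi against 8.72 labelled Lgr5-Med in Zip7 KO mice, a difference of -0.48, and 8.10 against 8.48 in control mice, a difference of -0.39. Rps13, a small-subunit protein, read 9.96 against 10.40 in Zip7 KO mice and 9.90 against 10.32 in control mice, differences of -0.44 and -0.42. In both genes the readings labelled Lgr5-Hi lay below those labelled Lgr5-Med with no overlap between genotypes.

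Rpl5 and Rpl23, large-subunit proteins that can bind the p53 regulator Mdm2 when free of the ribosome, followed with nearly equal values in both genotypes. Rpl5 read 11.73 labelled Lgr5-Hi against 12.08 labelled Lgr5-Med in Zip7 KO mice and 11.74 against 12.05 in control mice. Rpl23 read 11.76 against 12.09 in Zip7 KO mice and 11.75 against 12.08 in control mice. Rps7, another protein reported to bind Mdm2, differed by -0.25 in Zip7 KO and -0.32 in control mice.

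Rps19, Rpl6 and Rpl30 reached a difference of 0.32 in control mice alone. Rps19 differed by -0.19 in Zip7 KO and -0.38 in control mice, Rpl6 by -0.21 and -0.36, and Rpl30 by -0.20 and -0.34. Rpl5, given above, and Rplp2 reached it in Zip7 KO mice alone. Rplp2 read 6.74 labelled Lgr5-Hi against 7.15 labelled Lgr5-Med in Zip7 KO mice and 6.91 against 7.07 in control mice. Whether these members differ between genotypes in their fraction difference could not be tested with 1 array per group. Rpl9 differed by -0.27 in Zip7 KO and -0.20 in control mice.

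Of the brightest 5 genes, 4 had this sign in both genotypes, and Rplp1 in control mice alone. Rplp0 read 13.51 labelled Lgr5-Hi against 13.67 labelled Lgr5-Med in Zip7 KO mice and 13.35 against 13.53 in control mice. Rpl28 differed by -0.13 in Zip7 KO and -0.14 in control mice, and Rps6 by -0.18 and -0.05. Rpl21 differed by -0.23 in Zip7 KO and -0.05 in control mice. Rplp1 differed by 0.10 in Zip7 KO and -0.13 in control mice, and its second, dimmer probe set by -0.04 and -0.20, so that its probe sets disagreed in sign in Zip7 KO mice. The 3 stalk genes shared a sign in control mice. The array maxima lay between 14.5 and 14.6, and Rplp1 came within 1 log2 unit of them.

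Rpl38, needed in mice for translation of a subset of Hox messages, read 13.16 labelled Lgr5-Hi against 13.36 labelled Lgr5-Med in Zip7 KO mice and 13.11 against 13.19 in control mice. Rpl10a differed by -0.11 in Zip7 KO and -0.22 in control mice. Rps3, which also acts in DNA repair, differed by -0.12 in Zip7 KO and -0.09 in control mice. Rps14, lost in the human 5q deletion syndrome, differed by -0.05 in Zip7 KO and -0.23 in control mice, and its second probe set by 0.17 and -0.28. The X-linked members Rps4x, Rpl10 and Rpl36a differed by -0.24, -0.13 and -0.19 in Zip7 KO mice and by -0.21, -0.10 and -0.30 in control mice. Between genotypes, which differ in sex on these arrays, their brightest probe sets differed by at most 0.06 in either direction. Other probe sets of Rps4x reached 0.10 in cells labelled Lgr5-Hi and 0.18 in cells labelled Lgr5-Med, and those of Rpl10 reached 0.03 and 0.08. With the arrays shifted to equal medians, Rps4x and Rpl10 each differed by 0.10 in cells labelled Lgr5-Med, against a median of 0.04 over all genes.

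The 6 detected paralogs and related genes held both signs. Their median fraction difference was -0.12 in Zip7 KO and -0.08 in control mice, with 4 of 6 lower in each, and in control mice 3 of 6 were lower under equal medians and with the loess trend removed. Rpl32l differed by -0.30 in Zip7 KO and -0.14 in control mice. Rps27l differed by -0.15 in Zip7 KO and 0.01 in control mice, and Rps4l, a transcribed pseudogene in RefSeq, by 0.15 and -0.11. The second, dimmer probe set of Rps4l differed by 0.28 in Zip7 KO and 0.16 in control mice, so that its probe sets disagreed in sign in control mice. Rpl7l1 read 10.06 labelled Lgr5-Hi against 10.14 labelled Lgr5-Med in Zip7 KO mice and 9.92 against 9.95 in control mice, while its parent Rpl7 differed by -0.22 in Zip7 KO and -0.27 in control mice. Rps19bp1, a nucleolar protein that binds Rps19, differed by 0.02 in Zip7 KO and -0.15 in control mice.

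Rpl13 and Rps29 had opposite signs in the genotypes. Rpl13 differed by 0.23 in Zip7 KO mice and by -0.17 in control mice, and Rps29 by 0.05 and -0.24. In both genes the reading of Zip7 KO cells labelled Lgr5-Med was the lowest of the 4 and that of control cells with this label the highest. Rps3a1, a small-subunit protein, had the signs the other way round, with 8.16 labelled Lgr5-Hi against 8.41 labelled Lgr5-Med in Zip7 KO mice and 8.21 against 8.18 in control mice. Over the 59 members the genotype difference in cells labelled Lgr5-Hi minus that in cells labelled Lgr5-Med had a median of 0.04, against 0.05 over all genes, with 38 above 0 and 21 below (64.4% above 0, against 59.9% of all genes). Across the 53 subunit genes the fraction differences in Zip7 KO and control mice, which share no array, had a Pearson correlation of 0.54 and a Spearman correlation of 0.53, against a Pearson correlation of 0.78 over all genes.

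**Figure D3:**
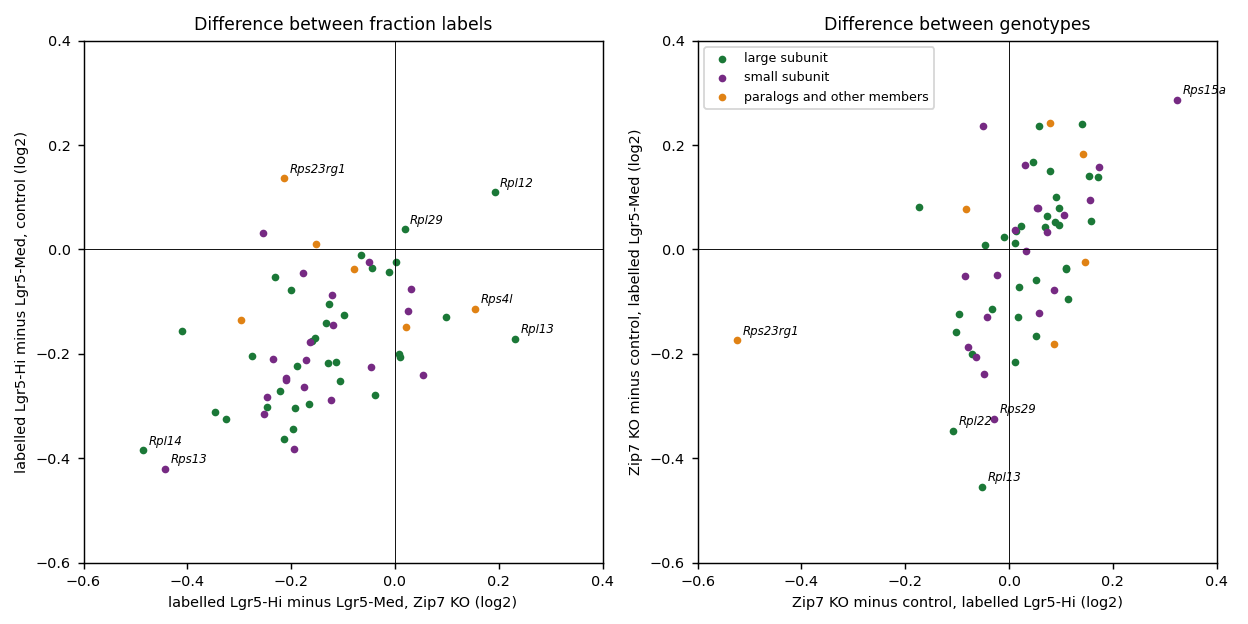
Each point is 1 of the 59 detected ribosomal protein genes, coloured by subunit: left, the fraction difference (labelled Lgr5-Hi minus labelled Lgr5-Med, log2) in Zip7 KO mice on the horizontal axis and in control mice on the vertical axis; right, the genotype difference (Zip7 KO minus control, log2) in cells labelled Lgr5-Hi and in cells labelled Lgr5-Med. In the left panel most points lie at the lower left and Rpl13 lies at 0.23 and -0.17; in the right panel the points lie around 0, with Rps15a at 0.32 and 0.29.

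Several probe sets often measure the same ribosomal protein gene and allow a check within the arrays, though not between animals. Of the 62 members, 38 had more than 1 probe set, up to 14 for Rps12. Of the 211 probe sets above the floor, 166 (78.7%) were lower in cells labelled Lgr5-Hi in Zip7 KO mice, with a median of -0.15, and 203 (96.2%) in control mice, with a median of -0.18. Of the 30 genes with at least 3 probe sets, all probe sets were lower in 23 genes in Zip7 KO and 28 genes in control mice, and all were higher in 4 and 0. Probe sets of a gene share its RNA and often its sequence, and 19 probe sets of Rpl23a, Rpl27, Rpl41, Rps12 and Rps28 had the same values as another of their gene, so that they are not independent readings.

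Among the 30 genes with at least 3 probe sets, the median SD between the probe sets of a gene was 0.029 in Zip7 KO and 0.023 in control mice for the fraction difference, and 0.028 and 0.037 for the genotype difference in cells labelled Lgr5-Hi and Lgr5-Med. Some genes with 2 probe sets were further apart: those of Rps14 gave genotype differences of 0.06 and 0.44 in cells labelled Lgr5-Hi, those of Rps21 gave -0.13 and -0.41 in cells labelled Lgr5-Med, and those of Rps9 gave fraction differences of -0.12 and -0.36 in Zip7 KO mice. The 9 probe sets of Rpl13 ran from 0.18 to 0.24 in Zip7 KO and from -0.27 to -0.14 in control mice for the fraction difference, and from -0.47 to -0.37 for the genotype difference in cells labelled Lgr5-Med. The 4 probe sets of Rps29 ran from 0.05 to 0.08 in Zip7 KO and from -0.24 to -0.14 in control mice. Those 2 genes therefore kept their opposite signs in all their probe sets. Rps13, with 3 probe sets from -0.44 to -0.34 in Zip7 KO and from -0.48 to -0.40 in control mice, and Rpl5, with 5 from -0.47 to -0.35 and from -0.31 to -0.25, were lower by each. Rps12 held probe sets of both signs in Zip7 KO mice, from -0.03 to 0.13, and 1 sign in control mice, from -0.13 to -0.04.

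**Figure D4:**
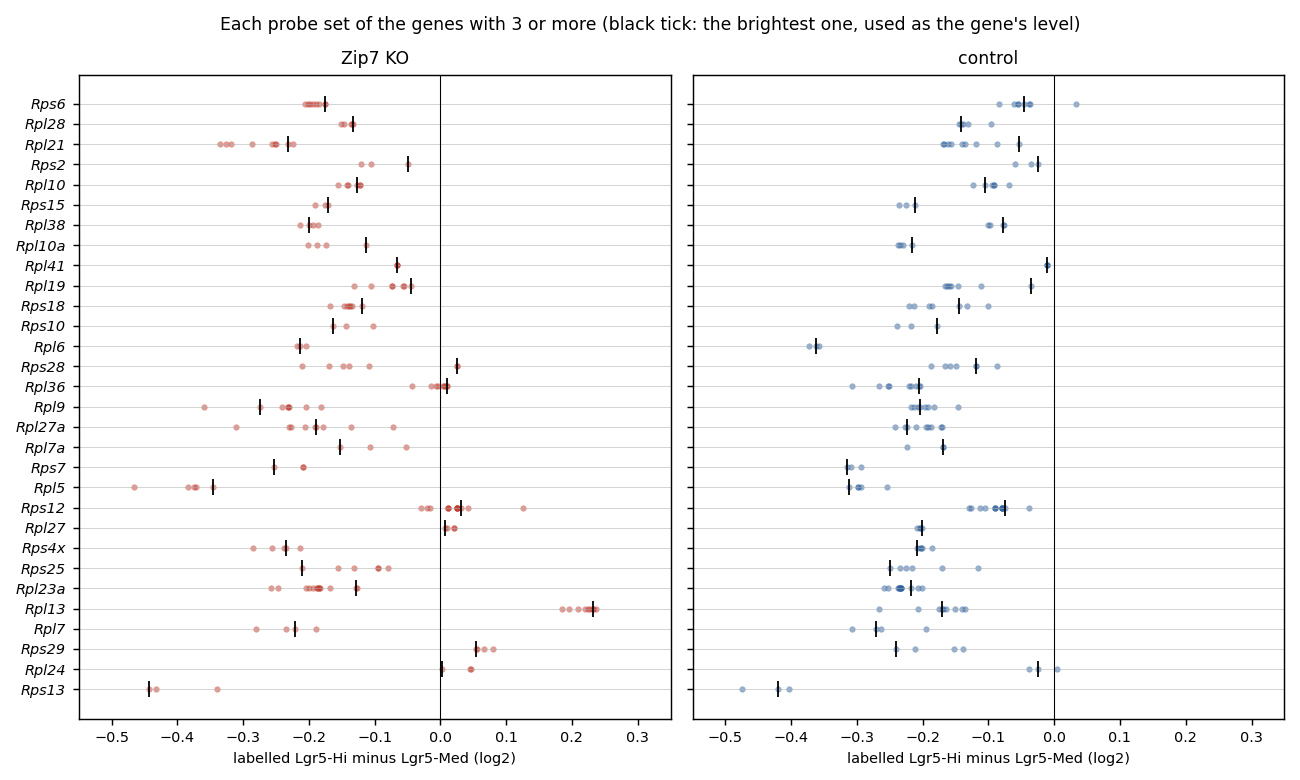
Fraction difference (labelled Lgr5-Hi minus labelled Lgr5-Med, log2) of each probe set above the floor for the 30 ribosomal protein genes with at least 3 probe sets, in Zip7 KO (left) and control mice (right); the black tick is the brightest probe set. All probe sets lie left of 0 in 23 genes in Zip7 KO and 28 genes in control mice, and the 9 of Rpl13 lie right of 0 in Zip7 KO and left of 0 in control mice.

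The family was set beside other genes of ribosome production and translation. Of 48 detected ribosome biogenesis factors, which make and process ribosomal RNA and assemble subunits, 44 were lower in cells labelled Lgr5-Hi in Zip7 KO mice and 43 in control mice, with medians of -0.22 and -0.26. In the genotype comparisons, 40 and 36 of the 48 were higher in Zip7 KO cells labelled Lgr5-Hi and Lgr5-Med, with medians of 0.13 and 0.10, where 55% and 44.2% of all genes were higher. These medians stayed above 0 under each scaling, where the counts ran from 34 to 40 and from 34 to 42. Their widest genotype differences were 0.39 for Rrn3, an initiation factor of RNA polymerase I, and -0.23 for Ubtf, its upstream factor, in cells labelled Lgr5-Hi, and 0.55 for Npm1, a nucleolar chaperone, and -0.32 for Sbds, which helps release Eif6 from the large subunit, in cells labelled Lgr5-Med. Of 17 detected elongation factors and other TOP messages, 15 were lower in cells labelled Lgr5-Hi in Zip7 KO and 16 in control mice, with medians of -0.11 and -0.17. The fraction counts are descriptions beside the 50.7% and 56.7% of all genes that were lower.

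Rpsa and Fau are ribosome subunits with other symbols. Rpsa, the small-subunit protein known also as a laminin receptor, differed by -0.06 in Zip7 KO and -0.21 in control mice between the fraction labels. Fau, whose product releases the small-subunit protein eS30, differed by 0.10 in Zip7 KO and -0.08 in control mice. Of 77 detected mitochondrial ribosomal protein genes, 30 were lower in cells labelled Lgr5-Hi in Zip7 KO mice and 47 in control mice, with medians of 0.02 and -0.04, whose signs changed under equal medians to -0.01 and 0.03. The 425 other genes with a mean level above 11 had medians of 0.03 in Zip7 KO and 0.00 in control mice, with 194 and 212 lower, and 219 and 146 lower under equal medians. The medians of these lists were thus nearer 0 than those of the ribosomal proteins in each genotype.

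**Figure D5:**
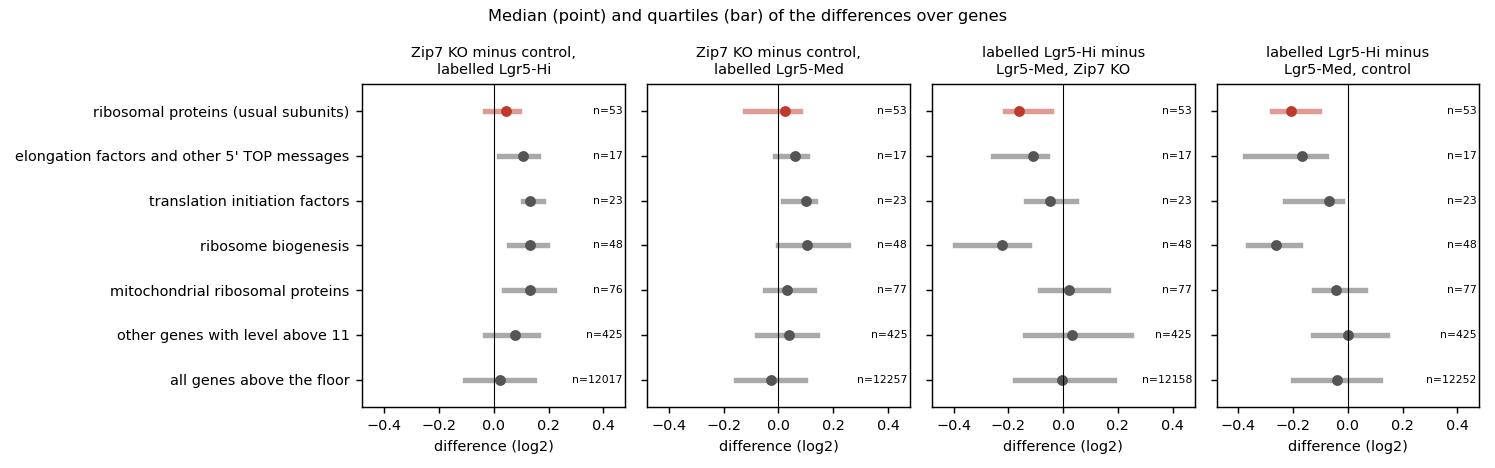
Median (point) and quartiles (bar) of the difference (log2) over the detected genes of each list in the 4 comparisons, with the number of genes at the right of each panel. In the fraction comparisons the 53 subunit genes have medians of -0.16 in Zip7 KO and -0.21 in control mice and ribosome biogenesis factors -0.22 and -0.26, while mitochondrial ribosomal proteins and all genes lie within 0.05 of 0.

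Myc and several marker lists differed between the fraction labels. Myc, a driver of ribosome production, read 9.97 labelled Lgr5-Hi against 11.14 labelled Lgr5-Med in Zip7 KO mice and 9.90 against 11.17 in control mice. It differed by 0.07 and -0.03 between genotypes. Myc had the widest fraction difference of 21 detected regulators of ribosomal protein synthesis. Of these 21, 15 were higher in cells labelled Lgr5-Hi in Zip7 KO mice (median 0.08), against 49.3% of all genes. In control mice 8 were higher (median -0.08), against 43.3%. All 8 stem cell markers were lower in cells labelled Lgr5-Hi in both genotypes, with summed levels (log2) of 13.55 against 14.89 in Zip7 KO and 13.73 against 14.74 in control mice. Of 8 markers of proliferation, 7 were lower in each genotype, with summed levels of 13.31 against 13.64 and 13.34 against 13.54. The markers of secretory cells ran the other way: all 7 enteroendocrine markers were higher in cells labelled Lgr5-Hi, with summed levels of 13.72 against 10.89 in Zip7 KO and 13.85 against 11.25 in control mice. The 6 detected goblet cell markers had summed levels of 15.37 against 13.90 in Zip7 KO and 15.35 against 14.35 in control mice, and the 7 Paneth cell markers 14.66 against 13.49 and 15.20 against 14.61. Enterocyte markers were higher in cells labelled Lgr5-Hi in 10 of 11 genes in Zip7 KO and 6 of 11 in control mice (medians 0.54 and 0.03), and tuft cell markers in 5 and 6 of 6 (medians 0.37 and 0.98). Of the detected immune cell markers, 10 of 11 were lower in control mice (median -0.41) and 6 of 9 in Zip7 KO mice (median -0.22). Beside these counts, 50.7% of all genes were lower in cells labelled Lgr5-Hi in Zip7 KO mice and 56.7% in control mice, and 49.3% and 43.3% were higher. Every marker of the stem cell, proliferation, enteroendocrine, goblet and Paneth lists that had a probe set was above the floor on all 4 arrays. The part of Myc and these markers in the lower ribosomal protein messages of cells labelled Lgr5-Hi was not tested.

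The response to stress of the endoplasmic reticulum, which lowers translation through phosphorylation of eIF2alpha by PERK, was set beside the genotype comparison. All 14 listed ER stress genes were higher in Zip7 KO cells labelled Lgr5-Hi, with a median of 0.97, against 55% of all genes. In cells labelled Lgr5-Med 13 of 14 were higher, with a median of 0.29, against 44.2% of all genes. Hspa5, the main chaperone of the compartment, read 13.09 in Zip7 KO and 12.48 in control cells labelled Lgr5-Hi, and 12.39 in Zip7 KO and 12.14 in control cells labelled Lgr5-Med. On the same arrays the ribosomal protein genes had the medians of 0.05 and 0.02 given above, whose sign depended on the scaling.

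Members with and without the pyrimidine run at the annotated start had like medians in the fraction comparisons. The 9 subunit genes with the run had median fraction differences of -0.18 in Zip7 KO and -0.16 in control mice. The 33 subunit genes with a promoter in the table and no run there had medians of -0.15 and -0.20. The medians of the genotype difference were 0.05 for both in cells labelled Lgr5-Hi, and 0.16 with the run and 0.02 without it in cells labelled Lgr5-Med. These medians were not tested against each other. Of the 50 members with a promoter, 29 held such a run anywhere from 10 bases before to 15 bases from the annotated start. Some genes without the run at the annotated start thus hold it nearby, and the split cannot be read as one of TOP messages against others.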

How the data were processed

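The deposited values are log2 expression values per probe set from Affymetrix arrays, made by the authors with RMA, per the submitters' processing notes. The software, its version and the probe annotation are unknown here. Labelled cDNA was made from total RNA, per the labels' protocols. RMA gives the 4 arrays nearly the same distribution of values, so a difference is relative to the other genes of an array, and a change in total RNA per cell is not seen.

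Of 35557 probe sets, 21789 had 1 gene symbol in the platform annotation, 1621 had several and 12147 were not listed. Where several probe sets measured a gene, the one with the highest mean was used. A comparison counted genes that exceeded the floor on either of its arrays. All 62 members' gene IDs matched RefSeq. That table lists 88 protein-coding genes that match the naming rule, 61 of them members. Of the other 27, 20 appear only on probe sets of several symbols.

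With 1 array per group no test was run. Differences of 0.32 and 1 on the log2 scale served as call rules. Named members were the 8 with the widest difference in each comparison, the 5 brightest and 5 dimmest, paralogs with their parents, stalk genes, X-linked genes and genes with known extra roles. Members and lists were chosen with earlier results of these data known. The median difference was checked on simulated data and the naming rule on example symbols, while the counts were not checked in this way. The 9 alternatives are in the closing section. Python 3.11.15, numpy 2.4.6, pandas 2.3.3, statsmodels 0.14.6 and matplotlib 3.10.9 were used, with a loess span of 0.4. The number of arrays limits the precision.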

Additional observations from a re-analysis of the deposited data

Results flagged for a closer look

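Rpl13 had fraction differences of opposite sign in the genotypes, 0.23 in Zip7 KO and -0.17 in control mice, which gives 0.402 for Zip7 KO minus control. Rps23rg1 also had opposite signs, -0.21 in Zip7 KO and 0.14 in control mice, which gives -0.35. Both were flagged because the signs are opposite and the gap is at least 0.32 on the log2 scale, and neither gap was tested. The share of all genes that meet this rule is not given here. Rps23rg1 has 1 probe set of 1 symbol, and its readings were within 1 log2 unit of the floor.

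Probe sets that the annotation assigns to several symbols were not used in the levels above. Of these, 239 probe sets name 39 ribosomal protein genes between them. Of the 39 genes, 20 could not be taken by the rule, such as Rpl3, Rpl11 and Rps23, and the others are members. The median difference of these probe sets, labelled Lgr5-Hi minus labelled Lgr5-Med, was -0.171 in Zip7 KO mice, with 231 of 239 lower. In control mice it was -0.148, with 233 of 239 lower. Of all genes, 50.7% were lower in Zip7 KO mice and 56.7% in control mice. These probe sets were flagged because the levels above leave them out. Many of them share a gene, and some name members already measured on the same arrays, so they are not independent readings. Which of the named genes gives the signal cannot be told from the probe set.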

How the results depend on the processing

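Scaling was varied by equal array medians, quantile normalization and removal of the loess trend on level. Gene reading was varied by the mean over probe sets, no floor, and the floor passed on all 4 arrays. The members were varied by leaving out paralogs, members with several probe sets, or the brightest 1% of genes. The floor passed on all 4 arrays kept the same 59 members and could not change their medians. No floor only added 3 undetected paralogs. The median fraction differences kept their sign under all 9 alternatives, from -0.19 to -0.12 in Zip7 KO and from -0.21 to -0.11 in control mice. The genotype medians did not. In cells labelled Lgr5-Hi the median of 0.05 was -0.0194 with the loess trend on level removed and -0.0322 over members with 1 probe set. In cells labelled Lgr5-Med the median of 0.02 was -0.0144 after quantile normalization, -0.0273 with the loess trend removed, -0.0243 over members with 1 probe set and -0.0351 without the brightest 1% of genes. In these cells the median of all genes was -0.0526 after quantile normalization and -0.0014 with the loess trend removed. The genotype difference in cells labelled Lgr5-Hi minus that in cells labelled Lgr5-Med, with a median of 0.04, was -0.0699 when the arrays were shifted to equal medians. Such a shift moves every gene of an array by the same amount, so that all genes moved with the members. Of members that differed by at least 0.32 between genotypes in cells labelled Lgr5-Hi, 1 was left in place of 2 under equal medians, quantile normalization, the loess trend removed and without paralogs. In cells labelled Lgr5-Med, 1 was left in place of 3 over members with 1 probe set. The fraction count of 5 in Zip7 KO mice became 2 over members with 1 probe set and 3 without the brightest 1% of genes, and that of 6 in control mice became 1 under equal medians, 3 with the loess trend removed and 3 over members with 1 probe set. Fewer members were counted in the last settings by construction. For the others the cause was not tested. The signals of the brightest members lie near the array maxima, and how well small differences are resolved at that level was not tested. The labels give no replicate numbers, so samples were not paired by number, and no model pooling the 4 arrays was run.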

Other observations

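Translation initiation factors were higher in Zip7 KO cells labelled Lgr5-Hi in 22 of 23 detected genes, with a median of 0.13, against 55% of all genes, and in 18 of 23 in cells labelled Lgr5-Med, with a median of 0.10, against 44.2%. Eif4e, which binds the cap of messenger RNA, read 9.23 in Zip7 KO and 8.89 in control cells labelled Lgr5-Hi, and 9.36 in Zip7 KO and 9.02 in control cells labelled Lgr5-Med. Eif3m was the exception in cells labelled Lgr5-Hi, with 8.26 in Zip7 KO and 8.63 in control cells. Both medians stayed above 0 under each scaling.

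Genes of ribosome quality control and p53 surveillance were higher in 11 of 13 in Zip7 KO cells labelled Lgr5-Hi, with a median of 0.29, against 55% of all genes, and in 6 of 13 in cells labelled Lgr5-Med, against 44.2%, with a median of -0.05 that was 0.02 with the arrays shifted to equal medians. Zmat3, a p53 target, differed by 0.51 in cells labelled Lgr5-Hi and 0.36 in cells labelled Lgr5-Med, and Ccng1, another, by 0.42 and 0.33. Gtpbp2, which rescues stalled ribosomes, differed by 0.44 and -0.32. Sesn2, an inhibitor of mTORC1, read 8.42 in Zip7 KO and 7.75 in control cells labelled Lgr5-Hi. In cells labelled Lgr5-Med it read 7.99 in Zip7 KO and 8.05 in control cells. Sesn2 was taken from another list, of 21 detected regulators of ribosomal protein synthesis, where it rose most in cells labelled Lgr5-Hi. Of these 21, 15 were higher in Zip7 KO cells labelled Lgr5-Hi (median 0.09) and 7 in cells labelled Lgr5-Med (median -0.06). The lowest was Eif2ak2, with -0.43 and -0.54. Differences between the labels in these genotype differences were not tested.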
